A study of Homo sapiens with 9 samples.

Results

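Collagen genes were described in HEK293, a widely used human embryonic kidney cell line, after the cells had been transiently transfected with surfactant protein C, a small membrane-associated protein of the lung encoded by SFTPC. The genes were those whose symbol is COL, a number, A and a number. They were 43 of the 19775 genes that had an Affymetrix probe set of their own, and 112 probe sets measured them. Antisense genes were left out. The brightest probe set of a gene, by its mean over the arrays, stands for it. Cells expressed the mutant that lacks exon 4 (Ex4), the mutant with the substitution of leucine 188 by glutamine (L188Q, LQ) or the wild-type protein (WT), with 3 arrays per group and 9 in all. All groups carried a transfected SFTPC, and cells without a transfected SFTPC were not analysed here. The labels do not say whether the 3 samples of a group were separate cultures, so the p-values rest on a spread between arrays that may be only technical. In RNA from whole cultures, fewer cells that express a gene and less RNA per cell cannot be told apart.

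Collagens are secreted or membrane proteins of the extracellular matrix in which chains rich in glycine, proline and hydroxyproline wind into a triple helix. Chains enter the endoplasmic reticulum (ER), are hydroxylated and glycosylated there, assemble from the C-terminal end, and leave in large transport carriers. Fibrillar collagens (types 1, 2, 3, 5, 11, 24 and 27) form the ropes of tendon, bone and skin, type 4 forms the sheet of basement membranes, type 6 forms beaded filaments, type 7 anchors the basement membrane of skin, and the FACIT group, which includes types 9, 12 and 14, binds to the surface of fibrils. Surfactant protein C is itself made as a proprotein in the ER, and several folding mutants of it are known to be retained there.

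Upstream sequences are shown for the collagen with higher signal in LQ and for a collagen with lower signal, since each has a single start in the RefSeq promoter table (GRCh38.p14), and for the space between COL4A1 and COL4A2, which did not pass the test in either mutant. Capitals mark the GC box GGGCGG, the CCAAT box CCAAT and the TATA box TATAAA on either strand. The COL12A1 sequence is the 250 bases before the start at chr6:75206054-75206303 on the minus strand, the COL7A1 sequence the 250 bases before the start at chr3:48595330-48595579 on the minus strand, and the last one the 126 bases between the starts of COL4A1 and COL4A2 at chr13:110307158-110307283, read on the plus strand, in the direction of COL4A2.
COL12A1: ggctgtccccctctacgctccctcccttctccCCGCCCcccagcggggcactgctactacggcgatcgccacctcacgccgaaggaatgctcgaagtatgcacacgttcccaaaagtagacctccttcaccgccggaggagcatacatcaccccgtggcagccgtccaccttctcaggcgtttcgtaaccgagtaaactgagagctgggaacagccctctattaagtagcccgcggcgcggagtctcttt
COL7A1: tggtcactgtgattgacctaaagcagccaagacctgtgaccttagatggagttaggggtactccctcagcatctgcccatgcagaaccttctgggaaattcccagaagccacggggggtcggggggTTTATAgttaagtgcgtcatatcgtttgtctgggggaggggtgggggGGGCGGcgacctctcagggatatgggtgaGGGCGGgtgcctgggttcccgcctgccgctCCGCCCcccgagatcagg
COL4A1-COL4A2: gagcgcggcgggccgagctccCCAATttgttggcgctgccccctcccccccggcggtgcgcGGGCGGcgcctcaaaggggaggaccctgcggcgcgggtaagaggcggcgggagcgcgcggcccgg

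The COL12A1 sequence held 1 GC box and no CCAAT or TATA box, and the COL7A1 sequence 3 GC boxes and 1 TATA box. The COL4A1-COL4A2 sequence held 1 CCAAT box and 1 GC box, and 80.2% of its bases were G or C, against 61.2% for COL12A1 and 60.8% for COL7A1. Of the 43 collagen genes 31 were matched in the table by symbol, some with several starts. COL1A1 and COL6A1, called lower in LQ below, were not matched, nor were COL1A2, COL2A1 and COL3A1. The motif counts do not cover them. A GC box lay within 250 bases upstream of a start in 21 of the 31 matched genes and in 46.2% of all 27305 genes of the table. A CCAAT box lay there in 10 of 31 and in 37.0%, and a TATA box in 6 of 31 and in 13.0%. The median share of G and C was 64.4% over the 43 collagen windows and 58.0% over all 35116 windows. The part of this share, and of the number of starts per gene, in the motif counts was not tested. The ER stress response element, CCAAT and CCACG with 9 bases between them, was found in 0 of 31 and in 0.0916% of all genes. The unfolded protein response element TGACGTGG was found in 0 of 31 and in 0.78%. All motifs were searched on both strands, and the full ER stress response element contains a CCAAT box. Type 4 genes lie in head-to-head pairs. In the table COL4A3 and COL4A4 start 418 bases apart on chromosome 2, and COL4A5 and the nearer start of COL4A6 start 379 bases apart on chromosome X.

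The deposited values were MAS5 intensities with trimmed means between 1493.3 and 1494.9 on every array. Array medians were nevertheless lower in the mutants, between 316.1 and 434.3 in Ex4 and between 303.9 and 371.8 in LQ, against 506.4 to 524.4 in WT. Collagen changes are therefore given with their values under other scalings. The ratio of 3' to 5' signal for GAPDH was 0.956 to 1.225 in Ex4, 1.056 to 1.087 in LQ and 1.215 to 1.433 in WT, and its part in the results was not tested. On 1 SFTPC probe set the intensity was 914.4, 39.1 and 28.7 on Ex4 replicates 1, 2 and 3, against 158962 to 239964 on the WT arrays, with LQ at 108292 to 126185. On another SFTPC probe set all groups were high, with 97702 to 172184 in Ex4 and 118126 to 129027 in LQ, against 160706 to 231145 in WT. Among 9 measured genes chosen for HEK293 cells (embryonic kidney and neurofilament genes such as PAX2, PAX8, NEFL and NEFM), all lay above the array median on all 9 arrays, and PAX2 fell in LQ (log2 change -2.04 ± 0.40 SE, limma adjusted p = 0.025, passing in 4 of 9 fits without 1 array, and -0.96 with adjusted p = 0.065 in the mean of its probe sets). PAX2 was the only 1 of the 9 that passed in LQ, where 7.32% of all tested genes did, and none passed in Ex4 (0% of all genes). In Ex4 PAX2 had -1.82 ± 0.40 (adjusted p = 0.077), and -0.80 with adjusted p = 0.13 in the mean of its probe sets. The 9 genes had a median log2 change of -0.23 in LQ, with 7 negative and 2 positive. Their summed intensity overlapped between groups, with 27957.3 to 31104.5 in Ex4, 28542.5 to 31643.7 in LQ and 26096.5 to 35307.3 in WT.

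Collagen genes split between bright and dim probe sets. On their brightest probe set 15 of the 43 genes lay at or over the array median on all 9 arrays, 15 lay under it on all 9, and 13 lay under it on some. COL3A1, the second main fibrillar collagen of soft tissue, was among the 15 under it on every array, with 241.8, 231.8 and 26.9 in Ex4, 241.4, 106.7 and 65.5 in LQ and 372.0, 62.0 and 286.3 in WT. The others were COL8A1, COL9A1, COL9A3, COL11A1, COL15A1, COL19A1, COL20A1, COL24A1, COL25A1, COL26A1, COL28A1, COL6A3, COL6A5 and COL6A6. A low signal on these probe sets is not a measure of absent RNA. Those over it on all 9 arrays included all type 4 genes except COL4A3, which lay under it on 1 WT array. The statistical test took probe sets whose mean log2(intensity + 16) was at or over percentile 40. It covered 27 collagen genes and left out 16, these 15 and COL10A1, so counts below refer to the 27.

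**Figure D1:**
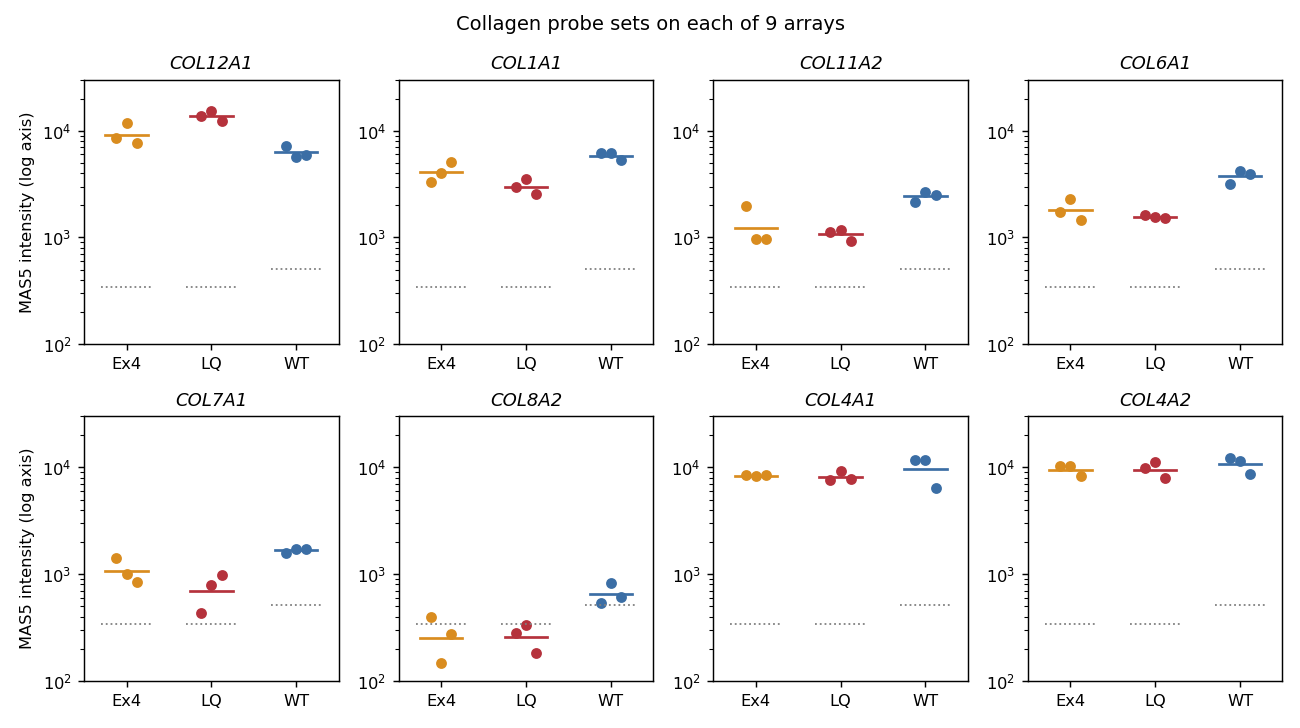
MAS5 intensity (log axis) of the brightest probe set of 8 collagens on each array, with 3 arrays each for Ex4, LQ and WT. Solid bars are means taken on the log2(intensity + 16) scale and dotted lines are the middle array median of each group. COL12A1 has its highest points in LQ, COL1A1, COL11A2, COL6A1 and COL7A1 have all mutant points under all WT points, and COL4A1 and COL4A2 overlap between groups.

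In LQ against WT, 1 collagen rose and 4 fell. COL12A1 rose 2.20-fold, and COL1A1, COL11A2, COL6A1 and COL7A1 fell to 0.514, 0.443, 0.421 and 0.424 times their WT level. By limma with Benjamini-Hochberg adjustment over 32768 probe sets, 5 of 27 tested collagens passed, where 7.32% of 14018 tested genes did. Higher calls were 1 of 27 (3.69% of all genes) and lower calls 4 of 27 (3.63% of all genes). Changes were negative for 20 of 27 collagens and positive for 7, against 56.4% and 43.6% of all genes, with a median log2 change of -0.32 for the collagens and -0.09 for all genes. The LQ arrays lay entirely below the WT arrays for 13 of 27 collagens (23.2% of all genes) and entirely above them for 1 (15.7%). The direction of the median depended on the scaling, as it was -0.12 after quantile normalization (all genes 0.00) and 0.26 after median centring of the arrays (all genes 0.49), where 10 of 27 were negative. None of the 5 calls held without LQ replicate 1, 2 or 3 or without WT replicate 2 or 3, each left out in turn, and the count was then 0. All 5 held without each Ex4 array and without WT replicate 1. Without a variance trend COL12A1 and COL6A1 passed, and the other 3 had adjusted p-values of 0.061 to 0.068.

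In Ex4 against WT no collagen passed. The count by limma was 0 of 27, with 7 at an unadjusted p under 0.05, and 0% of all 14018 genes passed, with 3812 at an unadjusted p under 0.05. Ex4 and LQ were set against the same WT arrays, so their values are given side by side below. Changes were negative for 23 of 27 collagens and positive for 4 (56.4% and 43.6% of all genes), with a median of -0.28 against -0.08 for all genes. That median was -0.15 after quantile normalization (all genes -0.01) and 0.21 after median centring (all genes 0.41). The Ex4 arrays lay entirely below WT for 8 of 27 (14.9% of all genes) and above for 1 (9.07%). Without Ex4 replicate 1, 3 collagens passed lower. They were COL11A2 (log2 change -1.31, adjusted p = 0.0068), COL6A1 (-1.02, adjusted p = 0.021) and COL8A2 (-1.62, adjusted p = 0.043). Without WT replicate 1, COL6A1 (-1.17, adjusted p = 0.0100) and COL11A2 (-1.07, adjusted p = 0.049) passed lower and COL12A1 (0.66, adjusted p = 0.049) higher. The share of all genes that passed in these fits is not given here, so these calls cannot be read as particular to collagens.

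**Figure D2:**
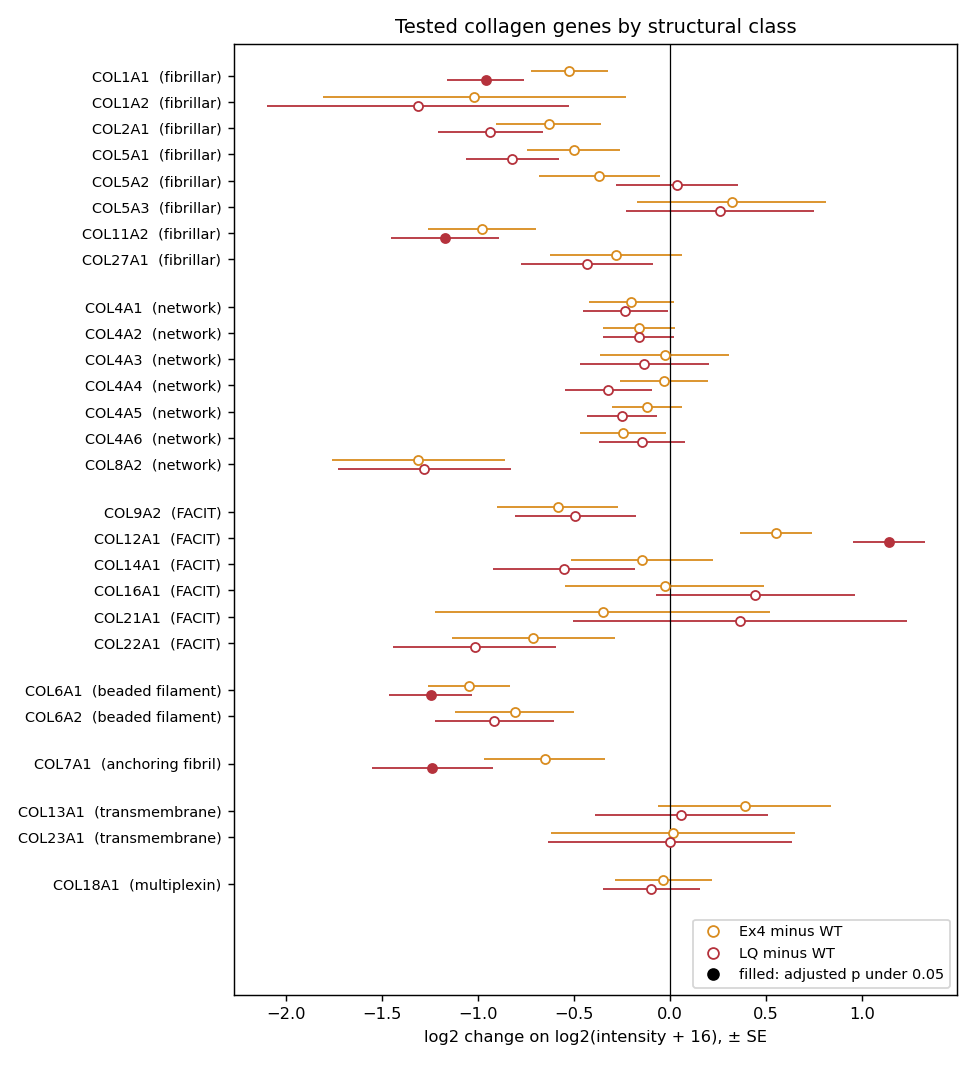
Log2 change of each of the 27 tested collagens on its brightest probe set, for Ex4 minus WT and LQ minus WT, grouped by structural class. Bars are limma standard errors, which pool the spread of all groups, and filled points passed an adjusted p of 0.05. Filled points are COL12A1 on the right and COL1A1, COL11A2, COL6A1 and COL7A1 on the left, all in LQ, while the brightest probe sets of type 4 genes lie between -0.32 and -0.03.

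Fibrillar collagens had 8 tested members of 11, of which 2 fell in LQ (3.63% of all genes) and 0 passed in Ex4 (0% of all genes). COL1A1, which encodes the alpha 1 chain of type 1 collagen of bone, skin and tendon, had 3296.2, 3998.2 and 5086.3 in Ex4 and 2952.2, 3560.0 and 2564.4 in LQ, against 6137.2, 6163.9 and 5285.9 in WT. Every mutant array lay below every WT array. The log2 change was -0.96 ± 0.20 in LQ (SE, adjusted p = 0.028) and -0.52 ± 0.20 in Ex4 (adjusted p = 0.14). The second brightest COL1A1 probe set also fell in LQ, at -1.03 ± 0.27 (adjusted p = 0.043), and the other 3 had 0.09, -0.83 and -0.91 (adjusted p = 0.86, 0.28 and 0.18). The call was lost after median centring (-0.38, adjusted p = 0.30) and in the mean of all its probe sets (-0.73, adjusted p = 0.067). COL1A2, the partner chain of type 1, had 737.5, 54.7 and 551.0 in Ex4 and 376.2, 182.9 and 195.0 in LQ, against 869.7, 897.3 and 294.9 in WT. These groups overlapped, and the log2 change was -1.31 ± 0.79 in LQ and -1.02 ± 0.79 in Ex4 (adjusted p = 0.29 and 0.44).

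COL11A2, a chain of the cartilage collagen type 11, had 1968.5, 969.8 and 975.0 in Ex4 and 1132.5, 1166.7 and 933.4 in LQ, against 2143.8, 2691.3 and 2515.5 in WT. Ex4 replicate 1 stood near the WT arrays and the other two Ex4 arrays near the LQ arrays. It fell in LQ, its log2 change being -1.17 ± 0.28 (adjusted p = 0.037), and had -0.98 ± 0.28 in Ex4 (adjusted p = 0.090). Its call was lost after quantile normalization (-1.07, adjusted p = 0.0502) and after median centring (-0.59, adjusted p = 0.11). COL2A1, the main collagen of cartilage, had 1321.6, 2622.0 and 2478.0 in Ex4 and 1697.4, 1737.7 and 1537.0 in LQ, against 3725.5, 2419.9 and 3577.1 in WT. LQ lay below WT on all arrays while Ex4 overlapped WT, with log2 changes of -0.94 ± 0.27 in LQ and -0.63 ± 0.27 in Ex4 (adjusted p = 0.058 and 0.18). Its second probe set fell in LQ (-1.17 ± 0.30, adjusted p = 0.043).

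COL5A1, a regulatory chain inside type 1 fibrils, had 2525.0, 2500.3 and 1926.2 in Ex4 and 2408.1, 1939.3 and 1334.7 in LQ, against 3843.0, 3275.1 and 2760.0 in WT. All mutant arrays were below all WT arrays. Its log2 change was -0.82 ± 0.24 in LQ and -0.50 ± 0.24 in Ex4 (adjusted p = 0.060 and 0.22), and its second probe set fell in LQ (-0.94 ± 0.25, adjusted p = 0.046). The COL5A1 probe sets had changes of like size on either side of the threshold. Those of COL27A1 differed more, with -0.43 ± 0.34 on the brightest probe set (adjusted p = 0.42) and -1.14 ± 0.30 on the second, which fell in LQ (adjusted p = 0.045). COL5A2 and COL5A3, the other type 5 chains, had 0.04 and 0.26 in LQ and -0.37 and 0.32 in Ex4 (adjusted p = 0.95, 0.75, 0.49 and 0.72). On COL5A3, WT replicate 3 had 125.4 while the other WT arrays had 525.2 and 440.2. In the fits without 1 array its change ran from -0.34 to 0.62 in LQ and from -0.28 to 0.69 in Ex4, so no direction can be given.

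Beaded filament collagens, type 6, link cells to the surrounding fibrils. COL6A1 had 1720.7, 2303.8 and 1459.0 in Ex4 and 1610.0, 1566.1 and 1504.6 in LQ, against 3138.4, 4155.3 and 3958.7 in WT. The mutant arrays did not reach the WT range. Its log2 change in LQ, where it fell, was -1.25 ± 0.21 (adjusted p = 0.020), and in Ex4 it was -1.05 ± 0.21 (adjusted p = 0.076). Its 2 other tested probe sets had -1.18 and -1.46 in LQ (adjusted p = 0.30 and 0.11), and its call was lost after median centring (-0.66, adjusted p = 0.080). COL6A2, the second chain of the same trimer, had 524.0, 495.1 and 546.2 in Ex4 and 394.8, 525.2 and 544.5 in LQ, against 728.5, 1285.6 and 845.6 in WT, again without overlap. Its brightest probe set had -0.91 ± 0.31 in LQ and -0.81 ± 0.31 in Ex4 (adjusted p = 0.084 and 0.14). Its other probe set fell in LQ, at -1.34 ± 0.30 (adjusted p = 0.031), and had -1.10 in Ex4 (adjusted p = 0.086). COL6A3, the long alpha 3 chain, was not tested, with 126.6, 31.6 and 30.2 in Ex4, 49.2, 35.8 and 15.2 in LQ and 152.9, 29.5 and 153.3 in WT.

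The anchoring fibril collagen COL7A1, which ties the epidermal basement membrane to the dermis, had 1424.0, 997.6 and 840.1 in Ex4 and 436.6, 793.8 and 990.4 in LQ, against 1583.3, 1729.3 and 1719.8 in WT. All mutant arrays lay below WT, and LQ spread over a wider range than WT. In LQ it fell (log2 change -1.24 ± 0.32, adjusted p = 0.042) and had -0.65 ± 0.32 in Ex4 (adjusted p = 0.22). Its call was lost after quantile normalization (-1.02, adjusted p = 0.082), after median centring (-0.66, adjusted p = 0.16) with no filter (adjusted p = 0.054) and in the mean of both probe sets (-0.21, adjusted p = 0.69). The dim second COL7A1 probe set had 0.82 in LQ and -0.40 in Ex4 (adjusted p = 0.49 and 0.77), so the probe sets differed in direction.

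**Figure D3:**
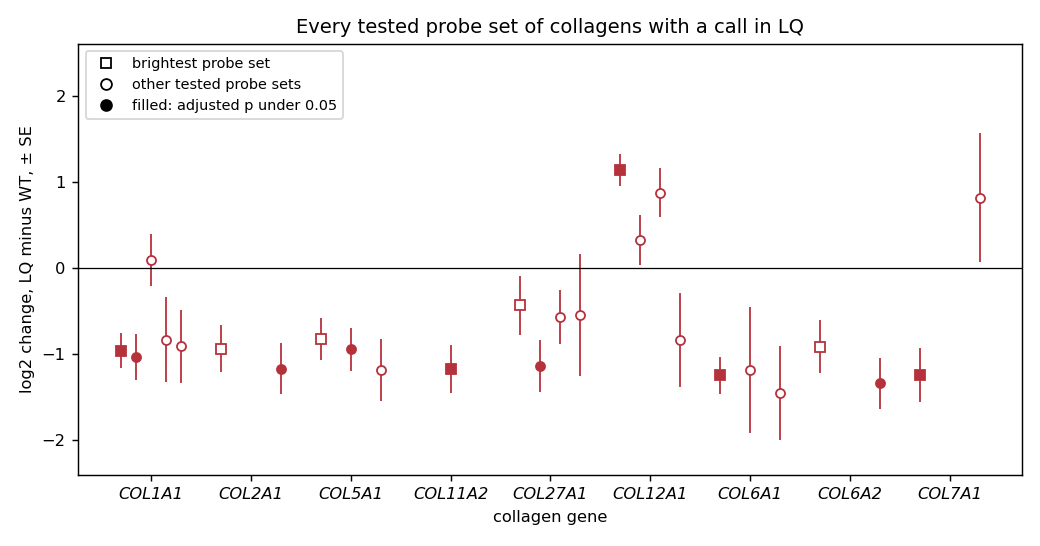
Log2 change in LQ minus WT, with its limma standard error, for every tested probe set of the 9 collagens that had at least 1 probe set past an adjusted p of 0.05. Squares are the brightest probe set of a gene, circles the others, and filled symbols passed. COL2A1, COL5A1, COL27A1 and COL6A2 have an open square and a filled circle, and COL1A1, COL12A1 and COL7A1 have probe sets on both sides of 0.

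Over all 55 tested collagen probe sets, 1 was called higher and 9 lower in LQ, against 1011 higher and 1220 lower of 32768 in all. The 9 lower ones belonged to COL1A1 (2), COL11A2, COL2A1, COL5A1, COL27A1, COL6A1, COL6A2 and COL7A1. When the probe sets of a gene were averaged, 4 collagens of 19 tested passed in LQ, all lower. They were COL11A2, COL2A1, COL5A1 and COL6A2, so of the genes called on their brightest probe set COL11A2 alone passed both ways. The mean of the COL6A1 probe sets lay below the filter and was not tested. The share of all genes that passed with averaged probe sets is not given here, so the 4 of 19 cannot be set against it.

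FACIT collagens had 6 tested members of 10. COL12A1, whose product lies on the surface of type 1 fibrils, had 8455.5, 11873.8 and 7720.9 in Ex4 and 13760.3, 15385.5 and 12386.5 in LQ, against 7242.7, 5689.3 and 5941.5 in WT. The 3 groups did not overlap on this probe set, with Ex4 between LQ and WT. In LQ it rose (log2 change 1.14 ± 0.19, adjusted p = 0.019), and it had 0.55 ± 0.19 in Ex4 (adjusted p = 0.11) and 0.59 ± 0.19 for LQ against Ex4 (adjusted p = 1.0). Its direction and its LQ call were kept after quantile normalization (0.98, adjusted p = 0.027) and median centring (1.72, adjusted p = 0.0018). In Ex4 it passed after median centring (1.04, adjusted p = 0.018). That scaling called 8452 of all 32768 probe sets in LQ and 5106 in Ex4, against 2231 and 4 as deposited. The other tested COL12A1 probe sets had 0.33, 0.88 and -0.84 in LQ (adjusted p = 0.47, 0.076 and 0.33), and the mean of all its probe sets had 0.52 (adjusted p = 0.15). In Ex4 they had -0.01, 0.23 and -0.80 (adjusted p = 0.99, 0.64 and 0.38), and that mean had 0.22 (adjusted p = 0.54). Which exons or transcript forms these probe sets cover was not analysed here.

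The other FACIT members did not pass in either mutant. COL9A2, a cartilage chain, had 336.0, 428.3 and 489.7 in Ex4 and 432.9, 388.2 and 513.0 in LQ, against 612.9, 641.9 and 629.9 in WT. Although both mutants lay below WT, its log2 change of -0.49 in LQ (adjusted p = 0.32) became 0.03 after quantile normalization and 0.09 after median centring. COL22A1, COL14A1, COL16A1 and COL21A1 had -1.02, -0.55, 0.45 and 0.36 in LQ and -0.71, -0.15, -0.03 and -0.35 in Ex4, each with an adjusted p of 0.14 or more, and all 4 lay under the array median on at least 5 arrays. COL22A1 lay under it on all LQ arrays, COL16A1 on all Ex4 and WT arrays and COL21A1 on all WT arrays. The size of a change that uses those groups is not measured. On COL21A1, Ex4 replicate 1 had 24.4 while the other Ex4 arrays had 683.1 and 497.8.

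Network collagens had 7 tested members of 9 and no call in either mutant. Type 4, the collagen of basement membranes, was measured through all its chains. COL4A1 had 8404.2, 8232.2 and 8493.8 in Ex4 and 7676.3, 9266.7 and 7734.3 in LQ, against 11821.9, 11838.3 and 6380.8 in WT. COL4A2, which shares its start region and its trimer with COL4A1, had 10230.5, 10315.6 and 8237.6 in Ex4 and 9818.9, 11185.0 and 7899.0 in LQ, against 12235.4, 11395.3 and 8733.5 in WT. In both genes WT replicate 3 lay below the other two WT arrays and the groups overlapped. The log2 change was -0.23 ± 0.22 for COL4A1 and -0.16 ± 0.19 for COL4A2 in LQ, and -0.20 ± 0.22 and -0.16 ± 0.19 in Ex4 (adjusted p = 0.51, 0.59, 0.60 and 0.62). After median centring the LQ values were 0.35 and 0.42, so no direction can be given. Their dimmer second probe sets had -0.70 and -0.16 in LQ and -0.84 and -0.61 in Ex4.

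COL4A3 and COL4A4, chains of the kidney glomerular basement membrane together with COL4A5, had log2 changes of -0.13 and -0.32 in LQ and -0.03 and -0.03 in Ex4. COL4A5 and COL4A6 had -0.25 and -0.15 in LQ and -0.12 and -0.24 in Ex4. All LQ arrays lay below all WT arrays for COL4A4 and COL4A5. A second COL4A4 probe set had 737.6, 378.8 and 491.0 in Ex4 and 456.2, 115.7 and 344.4 in LQ, against 812.1, 832.2 and 892.6 in WT, without overlap. Its log2 change was -1.61 ± 0.46 in LQ and -0.69 ± 0.46 in Ex4 (adjusted p = 0.056 and 0.37), so the COL4A4 probe sets differed in size of change. All 8 values on the brightest probe sets were negative as scaled, none passed (adjusted p from 0.37 to 0.97), and after median centring the 4 LQ values ran from 0.26 to 0.45. COL8A2, a chain of the short network collagen of the cornea, had 393.9, 146.8 and 274.2 in Ex4 and 282.0, 334.9 and 182.0 in LQ, against 534.5, 834.3 and 615.4 in WT. Both mutants were below WT without overlap and below their array medians on all arrays, so the size of its change is not measured. The fitted log2 change was -1.31 ± 0.45 in Ex4 and -1.28 ± 0.45 in LQ (adjusted p = 0.12 and 0.093).

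The transmembrane collagens COL13A1 and COL23A1 had 0.06 and 0.00 in LQ and 0.39 and 0.02 in Ex4, and the multiplexin COL18A1, whose C-terminal part gives endostatin, had -0.10 in LQ and -0.03 in Ex4. None passed (adjusted p from 0.62 to 1.0). COL13A1 and COL23A1 lay under the array median on at least 7 of 9 arrays. This held on all LQ and WT arrays for COL13A1 and on all Ex4 arrays for COL23A1, so changes that use those groups are not measured in size. The second COL18A1 probe set had 1179.5, 942.1 and 1042.7 in Ex4 and 1263.4, 1444.2 and 1141.0 in LQ, against 1676.7, 2230.9 and 1496.6 in WT. Unlike the brightest one it did not overlap between mutants and WT, with -0.75 ± 0.23 in Ex4 and -0.47 ± 0.23 in LQ (adjusted p = 0.100 and 0.20). The second COL13A1 probe set, also dim, had 1.04 in Ex4 and 1.25 in LQ (adjusted p = 0.29 and 0.18).

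**Figure D4:**
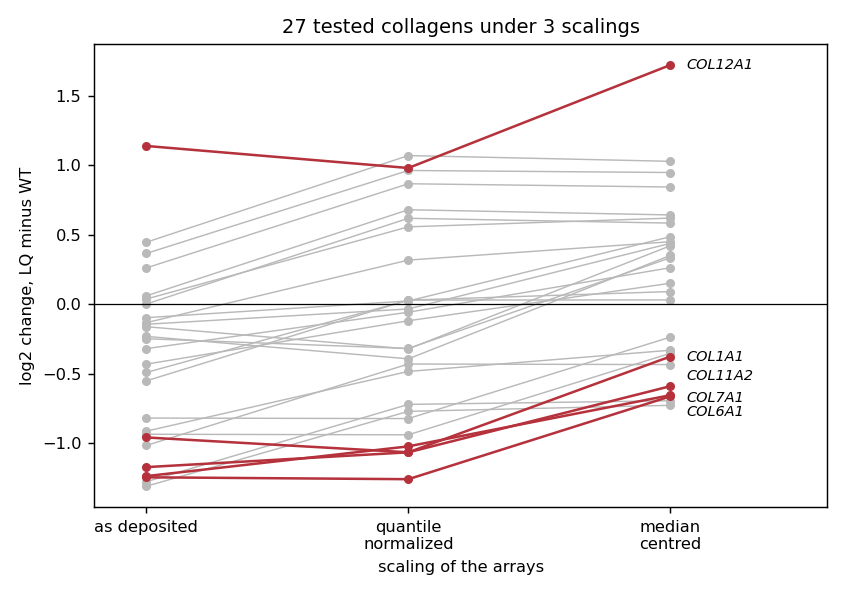
Log2 change in LQ minus WT of the 27 tested collagens as deposited, after quantile normalization and after centring each array on its median. Red lines are the 5 collagens called as deposited. COL12A1 stays above 0 and the other 4 below 0 under all 3 scalings, while many of the grey lines cross 0.

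Directly compared, LQ against Ex4 gave no called collagen. By limma the count was 0 of 27, with 2 at an unadjusted p under 0.05, and 0% of all 14018 genes passed, with 588 at an unadjusted p under 0.05. Differences were negative for 20 of 27 collagens and positive for 7 (51.5% and 48.5% of all genes). The largest were in COL12A1 (0.59 ± 0.19), COL7A1 (-0.59 ± 0.32) and COL1A1 (-0.44 ± 0.20) among the collagens above the array median on all arrays of a group (adjusted p = 1.0 each). COL21A1, which lay under it on an array of every group, had 0.72 ± 0.87. COL12A1 was higher on all LQ arrays than on all Ex4 arrays, and COL7A1 and COL1A1 overlapped. Over all genes the LQ arrays lay entirely above the Ex4 arrays for 5.91% and entirely below for 6.47%, against 1 and 2 of 27 collagens. The test does not show that the mutants acted alike, since the standard errors of these 3 differences ran from 0.19 to 0.32.

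Genes that make, export, cut, bind and degrade collagen were read from 8 lists. In the hydroxylation and folding list, 1 of 19 tested members rose and 1 fell in LQ, near the 3.69% higher and 3.63% lower of all genes. P4HB, protein disulfide isomerase and the beta subunit of prolyl 4-hydroxylase, had 18198.2, 33814.2 and 28708.6 in Ex4 and 33905.1, 34771.0 and 35871.6 in LQ, against 16936.5, 20145.5 and 23029.2 in WT. Its log2 change was 0.81 ± 0.21 in LQ (adjusted p = 0.044) and 0.39 ± 0.21 in Ex4 (adjusted p = 0.26). Ex4 replicate 1 lay within the WT range there. CRTAP, a subunit of the complex that hydroxylates proline at carbon 3, had 7810.5, 9277.7 and 8051.5 in Ex4 and 8060.9, 9027.2 and 7359.3 in LQ, against 11358.5, 17089.6 and 15839.5 in WT. Both mutants lay below WT, with -0.84 ± 0.18 in LQ (adjusted p = 0.029) and -0.80 ± 0.18 in Ex4 (adjusted p = 0.077). After median centring CRTAP had -0.26 in LQ (adjusted p = 0.45), while P4HB kept its call after quantile normalization and after median centring. Median centring called 8452 of all 32768 probe sets in LQ. The list's median log2 change was -0.30 in LQ and -0.25 in Ex4, and P4HA3, under the array median on all Ex4 arrays, had a fitted -1.30 in Ex4 (adjusted p = 0.23). In the mean of all probe sets of a gene, CRTAP had -0.42 in LQ and -0.39 in Ex4 (adjusted p = 0.17 and 0.23), and P4HB had 0.12 in LQ and -0.07 in Ex4 (adjusted p = 0.63 and 0.79).

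In the export list, 1 of 14 members passed in LQ, near the 7.32% of all genes. CUL3, the ubiquitin ligase scaffold that acts with KLHL12 on COPII coats, rose in LQ. It had 20994.6, 17359.4 and 16452.9 in Ex4 and 22848.1, 20627.0 and 21344.4 in LQ, against 16754.3, 10997.3 and 12821.1 in WT. Its log2 change in LQ was 0.70 ± 0.17 (adjusted p = 0.040), and 0.54 with adjusted p = 0.11 after quantile normalization. In Ex4 it was 0.45 ± 0.17 (adjusted p = 0.15). Changes were positive for 12 of the 14 in LQ (43.6% of all genes). The list's median was 0.13 in LQ and 0.22 in Ex4, where CREB3L1 had a fitted -1.55 and MIA2 -0.98 (adjusted p = 0.13 each). CREB3L1 is a membrane-bound transcription factor of collagen-secreting cells and MIA2 a partner of the carrier receptor MIA3. CREB3L1 lay under the array median on all Ex4 arrays. In the basement membrane list, 1 of 13 fell in LQ, where 3.63% of all genes did. It was LAMC3, a laminin gamma chain, with 320.9, 439.0 and 548.8 in Ex4 and 39.7, 282.3 and 298.6 in LQ, against 569.4, 963.5 and 876.4 in WT. LQ lay below its array medians there, so the size of the fitted -2.20 ± 0.61 (adjusted p = 0.0495) is not measured, and it was -1.38 without LQ replicate 1. Its call was lost after quantile normalization (-1.68, adjusted p = 0.14) and after median centring (-1.62, adjusted p = 0.071). In Ex4 the largest changes of the list were 1.03 for LAMA2 and -0.85 for LAMC3 (adjusted p = 0.100 and 0.40).

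When each array was left out in turn in LQ against WT, P4HB passed without Ex4 replicate 1 or 2 only, and LAMC3 without Ex4 replicate 1 or WT replicate 1 only. CRTAP and CUL3 passed without any one Ex4 array and without WT replicate 1, and were lost without WT replicate 2 or 3 or any LQ array. The highest adjusted p was 0.14 for P4HB and LAMC3, 0.12 for CRTAP and 0.13 for CUL3. In the mean of all their probe sets CUL3 had 0.55 and LAMC3 -1.33 in LQ (adjusted p = 0.084 and 0.098), so none of the 4 calls was kept. In Ex4 against WT, P4HB passed higher without Ex4 replicate 1 (0.65, adjusted p = 0.029) and CUL3 without WT replicate 1 (0.61, adjusted p = 0.028). CRTAP passed lower without Ex4 replicate 1 (-0.75, adjusted p = 0.032) and without WT replicate 1 (-0.98, adjusted p = 0.0040).

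No member of the other 5 lists passed in LQ or Ex4. Propeptide cleavage and crosslinking had 12 tested members and 11 negative changes in LQ (56.4% of all genes), with a median of -0.55. Its largest changes were -1.14 for ADAMTS14, a procollagen N-proteinase, and -1.02 for LOXL4, a lysyl oxidase (adjusted p = 0.072 and 0.075). In Ex4 ADAMTS14 had a fitted -1.80 and LOXL1 -1.10 (adjusted p = 0.076 and 0.080). ADAMTS14 lay under the array median on all Ex4 arrays. Collagen degradation had 11 tested members, 10 of them negative in LQ (56.4% of all genes), with a median of -0.72. MMP14, a membrane-bound collagenase, had -1.23 in LQ and -1.59 in Ex4 (adjusted p = 0.11 and 0.091). MMP15 had -1.15 in LQ (adjusted p = 0.36) and TIMP3, an inhibitor of matrix metalloproteinases, -1.07 in Ex4 (adjusted p = 0.11). These signs hold for the deposited scaling, since the median change of all genes in LQ was 0.49 after median centring.

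Collagen receptors had a median of -0.30 over 10 tested members in LQ and -0.07 in Ex4. Among them ITGA10 had -0.73 and CD44 -0.46 in LQ (adjusted p = 0.17 and 0.11), and LAIR1 and GP6, under the array median on all Ex4 arrays, had fitted changes of -1.98 and -0.41 in Ex4 (adjusted p = 0.081 and 0.58). Fibril-associated proteins had -0.23 over 9 tested members in LQ and -0.25 in Ex4, with TNXB at -2.22 and FMOD at -0.85 in LQ (adjusted p = 0.092 and 0.22) and BGN at -1.31 and TNXB at -1.16 in Ex4 (adjusted p = 0.32 and 0.37). TNXB and BGN lay under the array median on all LQ arrays. The size of a fitted change is not measured where a group lies under the array median on all its arrays. Besides the genes already marked so above, this holds for P4HA3, CREB3L1, ADAMTS14, LAIR1 and GP6 in Ex4 and for P4HA3, TNXB and BGN in LQ. The transforming growth factor beta list, a main inducing pathway of fibrillar collagens, had -0.11 over 13 members in LQ and -0.10 in Ex4. SMAD3 had -0.57 and SKIL 0.47 in LQ, and SKIL 1.13 and SMAD3 -0.55 in Ex4 (adjusted p from 0.11 to 0.42). All genes had a median of -0.09 in LQ and -0.08 in Ex4.

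**Figure D5:**
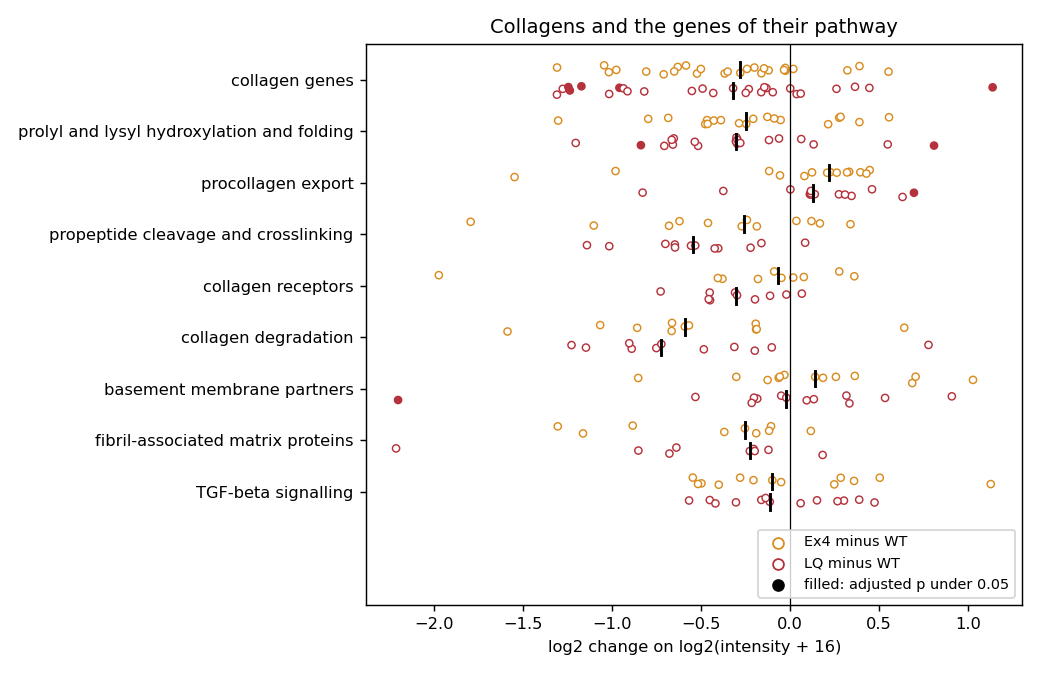
Log2 change of each tested gene in Ex4 minus WT and LQ minus WT, for the 27 collagens and 8 lists of genes that act on collagen. Black bars are list medians and filled points passed an adjusted p of 0.05. The filled points outside the collagens are P4HB and CUL3 on the right and CRTAP and LAMC3 on the left, all in LQ.

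Between LQ and Ex4 no member of the 8 lists passed (0% of all genes, adjusted p = 1.0 throughout). The largest differences by list were 0.80 for P3H2 and -0.62 for PLOD2 in hydroxylation, 0.72 for CREB3L1 and 0.61 for MIA2 in export, and 0.65 for ADAMTS14 and -0.56 for LOX in cleavage and crosslinking. They were 1.52 for LAIR1 and -0.35 for ITGA10 among receptors, -0.48 for MMP15 and 0.36 for MMP14 in degradation, and -1.35 for LAMC3 and -0.37 for LAMA5 among basement membrane partners. Fibril-associated TNXB and BGN had -1.05 and 0.63, and SKIL and TGFB1 had -0.65 and 0.34. P3H2, a prolyl 3-hydroxylase, had 3774.7, 3840.2 and 3951.0 in LQ, against 2389.7, 2165.3 and 2097.5 in Ex4, without overlap, while WT had 2913.9, 2031.6 and 3073.0.

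Markers of other cells that make collagen were read as well. Of 12 fibroblast markers 4 were tested, and 6 lay under the array median on all 9 arrays, among them PDGFRA, PDGFRB, LUM and FAP. The 12 were not all dim. Their summed intensity was 8207.7 to 9830.1 in Ex4, 8353.9 to 11183.5 in LQ and 8621.3 to 13531.4 in WT. The 4 tested members had log2 changes from -0.405 to -0.07 in LQ and from -0.38 to 0.03 in Ex4. None of them passed (adjusted p of 0.30 or more). Of 8 endothelial markers 3 were tested, and CDH5, TIE1 and ESAM lay under the array median on all 9 arrays. The summed intensity of the 8 was 960.0 to 3373.7 in Ex4 and 1285.5 to 2259.8 in LQ, below the 3436.0 to 3769.6 of WT. CLDN5, a tight junction gene of that list, fell in LQ (-1.87 ± 0.42, adjusted p = 0.033, passing in 4 of 9 fits without 1 array, and -1.47 with adjusted p = 0.059 after quantile normalization). In Ex4 it had -1.57 ± 0.42 (adjusted p = 0.085). It was the only 1 of the 3 tested that passed in LQ, where 3.63% of all genes were called lower, and none passed in Ex4. The 3 ran from -1.87 to -0.71 in LQ and from -2.23 to -0.99 in Ex4. The summed intensity of 6 podocyte markers, of which 5 were tested and 2 are themselves type 4 collagen genes, was 4800.9 to 5620.8 in Ex4, 4425.3 to 5105.8 in LQ and 4963.8 to 6365.3 in WT. The part of these markers in the collagen results was not tested.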

How the data were processed

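RNA was measured on 9 Affymetrix arrays. The deposited table holds 1 linear MAS5 intensity per probe set and array, per the submitters' processing notes, and other settings are not given in the sources used here. Besides 62 controls, the platform annotation gives 1 symbol for 41091 probe sets, several for 1801 and none for 11721. Symbols were updated through RefSeq. Values entered as log2(intensity + 16), which understates changes of dim genes. limma 3.58.1 (R 4.3.3, variance trend) fitted the 32768 probe sets with a mean at or over percentile 40 in 1 model of the 3 groups, without a replicate term. P-values were two-sided and Benjamini-Hochberg adjusted over those probe sets in each contrast, with a threshold of 0.05. The model was tested on simulated data. Precision is limited by the 3 arrays per group. The 43 members, the lists and the settings were chosen with earlier results of these data known. Array values are given for every called collagen and for the 3 largest changes per contrast among collagens above the array median on all arrays of at least 1 group. From each list, up to 4 called members with the smallest adjusted p were named, or the 2 largest changes where none passed. Array values of other collagens and of P3H2, and the markers PAX2 and CLDN5, were chosen after their values were seen. Motifs were searched in the 250 bases before RefSeq starts. Alternatives were pseudocounts of 1 and 64, quantile normalization, median centring, other filters (none, percentile 60), a fit with no trend, array weights, a replicate block, a fit of only 2 groups, averaged probe sets, and leaving out each array.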

Additional observations from a re-analysis of the deposited data

How the results depend on the processing

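In LQ against WT the 5 called collagens became 3 after quantile normalization, 1 after median centring, 2 without a variance trend and 10 with array weights, and 0 to 7 in the fits without 1 array. In Ex4 against WT the count of 0 became 1 after median centring, 3 with array weights, and 0 to 3 in the fits without 1 array. In LQ against Ex4 it was 0 under every alternative run. Over all 32768 probe sets, calls in LQ against WT were 2231 as deposited, 1154 after quantile normalization and 8452 after median centring. In Ex4 against WT they were 4, 10 and 5106. Totals over all probe sets under the other alternatives are not given here, so the collagen counts there have no background. The replicate numbers were not shown to pair the samples, as deviations of same-numbered arrays correlated at -0.083 to 0.191 and those of other arrays at -0.229 to 0.164. With the replicate block the LQ count was 5, with COL7A1 lost (adjusted p = 0.053) and COL5A1 gained (adjusted p = 0.036), and the counts of the other contrasts were 0. With median centring the collagen median was positive, at 0.21 in Ex4 and 0.26 in LQ. The causes of these changes were not tested. The mean of the probe sets gave 4 calls of 19 tested in LQ. Pseudocounts of 1 and 64 each left 5 calls in LQ, no filter gave 4 of 43 tested, the filter at percentile 60 gave 6 of 16, and only the arrays compared gave 6. Over all alternatives no gene past the threshold in either setting changed sign, while 132 of 1917 single-gene values did, each past it in neither setting, 28 of them under median centring. Signal near the array median limits what can be said of the 16 untested collagens, COL8A2 and most FACIT members.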
